A study of Mus musculus with 21 samples.

Results

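Splicing factors and hnRNPs were taken as the probe sets that match 1 gene and whose annotated symbol begins with U2af, Snrp, Sf3b, Sf3a, Hnrnp (older Hnrp) or Srsf (older Sfrs). This gave 61 probe sets for 44 genes, out of 12488 probe sets on the Affymetrix U74Av2 array and 10833 that match 1 gene. By role they fell into SR proteins (16 probe sets, 9 genes), hnRNPs (22 probe sets, 16 genes), snRNP proteins (10 probe sets, 8 genes) and the SF3 and U2AF factors (13 probe sets, 11 genes). All probe sets were kept, because those of 1 gene did not always move together.

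RNA came from B16-F10, a melanoma line of C57BL/6J mice, on 21 arrays in 9 groups. Cells were held for 24 h at 1% oxygen in a Billups_Rothenberg chamber (3 arrays) or in a flow-regulated incubator in experiment 1 (3 arrays) and experiment 2 (3 arrays). In experiment 3 cells received cobalt chloride (CoCl2), a salt used to mimic hypoxia, for 24 h at 100 µM (2 arrays) or 200 µM (2 arrays). Each of these sets had 2 control arrays of cells at 21% oxygen, for which the labels give no time. Neither the chamber arrays nor the 2 controls placed with them have an experiment number in their titles, which is why those controls were placed there, and device and set cannot be told apart. All groups are 1 cell line. The labels call the arrays of a group biological replicates without saying that each came from its own culture, so a p-value here covers array-to-array spread only.

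Pre-mRNA splicing is carried out by the spliceosome, which is built from small nuclear ribonucleoproteins (snRNPs). U2AF and the SF3A and SF3B complexes recognise the branch point and the end of the intron. SR proteins bind exonic sequences through RNA recognition motifs and recruit the core machinery through domains rich in arginine and serine, while many heterogeneous nuclear ribonucleoproteins (hnRNPs) coat nascent RNA and often act in the opposite direction on exon inclusion. The activity of SR proteins depends on phosphorylation by SRPK and CLK kinases. Several SR protein and hnRNP genes also carry exons that send part of their own transcripts to decay, so different probe sets of such a gene can read different transcripts.

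The labels were checked first. Of 9 probe sets for known hypoxia targets, 8 rose in hypoxia and at each CoCl2 dose, as measured by the same test used for the members. The mean log2 level of 11 probe sets for melanocyte genes lay between 8.43 and 8.9 in all hypoxia and control arrays, but at 6.9 and 7.12 in the 100 µM arrays and at 6.02 and 6.12 in the 200 µM arrays. Marker lists for fibroblasts, leukocytes, endothelium and epithelium stayed between 4.02 and 4.75 in every array. RNA quality differed in experiment 3. The 3′ minus 5′ difference of the Actb control probe sets, which grows as RNA is degraded, was 0.15 to 0.5 in the hypoxia arrays and their controls, 1.41 and 1.62 in the experiment 3 controls, 2.36 and 2.16 at 100 µM, and 1.47 and 0.5 at 200 µM. The same difference for Gapdh was 0.07 to 0.52 in the hypoxia arrays and their controls, 2.21 and 0.92 in the experiment 3 controls, 1.44 and 2.18 at 100 µM, and 0.45 and 0.12 at 200 µM. Both were thus high in the untreated arrays of experiment 3, and by Gapdh the 100 µM arrays overlapped their controls. Arrays of 1 group correlated at 0.992 or more, apart from the pair at 100 µM (0.98) and the pair at 200 µM (0.986). The melanocyte genes were lower at both CoCl2 doses. The 3′ minus 5′ differences were raised in the experiment 3 controls and at 100 µM. At 200 µM they were raised by Actb in array 1 (1.47) and not by Gapdh (0.45 and 0.12). How these patterns relate was not tested. The part of the melanocyte genes in the CoCl2 results was not tested. For RNA quality, a fit with the Actb difference as a covariate covered single members only in the comparisons that picked them for array values. It is given where it changed the call or moved a called value by over 1.5 times. Group means are in that fit, so its slope comes from differences between arrays of 1 group. The widest of these was the 200 µM pair (1.47 and 0.5). The slope thus rests mainly on those 2 arrays, and the fit cannot separate RNA quality from other differences between them. Other calls had no such fit, among them those of Hnrnpc, Hnrnph1, Snrpd3, Snrpe and U2af1 at 100 µM, and their dependence on RNA quality was not tested. In bulk RNA, fewer cells that express a gene and less RNA per cell cannot be told apart.

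Hypoxia lowered more of these probe sets than it raised. Averaged over the 3 sets, 28 of the 61 members fell (45.9%) and 4 rose (6.56%), where 16.8% of all 10833 tested probe sets fell and 11.2% rose (28% called either way). A probe set counts as changed where limma's adjusted p was under 0.05. The median member change was -0.26 on the log2 scale, against 0.01 for all probe sets. At 100 µM CoCl2, 34 members fell and 2 rose, where 18% of all probe sets fell and 16.3% rose (34.4% either way), and the median was -0.44. At 200 µM, 27 fell and 5 rose, where 19.7% of all probe sets fell and 18.2% rose (37.9% either way), and the median was -0.29. The median of all probe sets was itself 0.11 at 100 µM and 0.12 at 200 µM, so the members lay further below the rest of the array than their own medians show. Both doses share their 2 control arrays. Counts under other fits are given without the share of all probe sets under the same fit. The count at 100 µM was 23 without control array 1 of experiment 3, 22 without 100 µM array 1 and 21 with the Actb difference as a covariate, all of them falls.

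**Figure D1:**
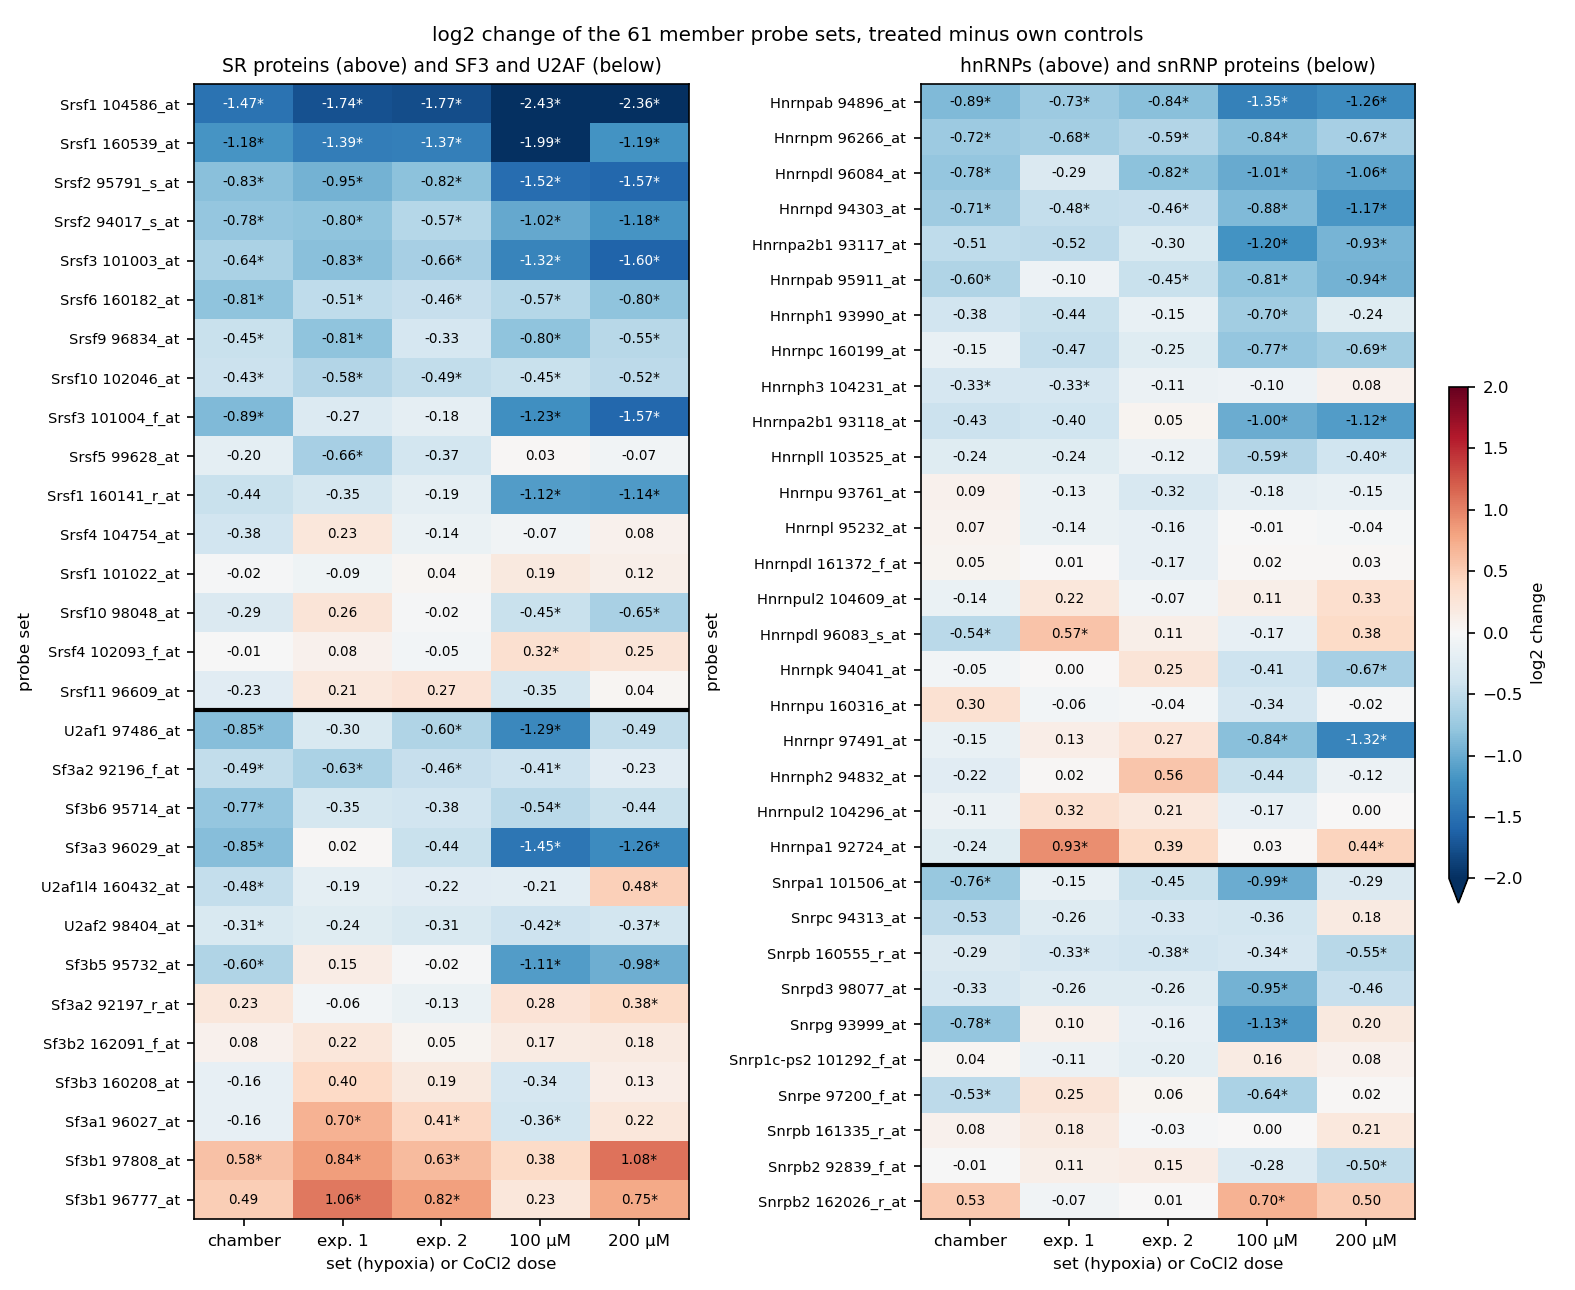
log2 change of each of the 61 member probe sets (rows) in the chamber set, experiment 1 and experiment 2 (hypoxia minus own controls) and at 100 µM and 200 µM CoCl2 (minus experiment 3 controls); a star marks an adjusted p under 0.05. The rows of Srsf1 104586_at, Srsf2 and Srsf3 101003_at at the top left are blue in all 5 columns, and the 2 Sf3b1 rows at the bottom left are red.

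The single hypoxia sets differed in how many members passed. In the chamber, 26 members fell and 1 rose, where 12.5% of all probe sets fell and 6.56% rose (19.1% either way). In experiment 1, 15 fell and 5 rose, where 9.18% of all fell and 6.76% rose (15.9% either way). In experiment 2, 15 fell and 3 rose, where 6.58% of all fell and 6.42% rose (13% either way). The chamber count was 16 without either control array of that set, and the experiment 2 count was 9 without its control array 1. In each of the 3 sets on its own, 11 members (18%) fell, where 3.9% of all probe sets did so. These were 2 probe sets each of Srsf1 and Srsf2 and 1 each of Srsf3, Srsf6, Srsf10, Hnrnpab, Hnrnpd, Hnrnpm and Sf3a2. A single member, 1 of the 2 Sf3b1 probe sets, rose in all 3 (1.64%, against 2.69% of all probe sets).

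By role, the SR proteins held the lowest medians. In hypoxia 10 of 16 SR probe sets fell and 0 rose (median -0.47), 9 of 22 hnRNP probe sets fell and 1 rose (median -0.16), 3 of 10 snRNP probe sets fell and 0 rose (median -0.19), and 6 of 13 SF3 and U2AF probe sets fell and 3 rose (median -0.16). Of all probe sets, 16.8% fell. At 100 µM the falls were 11 of 16, 11 of 22, 5 of 10 and 7 of 13 in the same order, where 18% of all probe sets fell, with 1 rise among SR proteins and 1 among snRNP proteins. At 200 µM, 11 SR and 11 hnRNP probe sets fell, while 2 snRNP probe sets (20%) and 3 SF3 and U2AF probe sets (23.1%) fell, shares near the 19.7% of all probe sets, and 4 of the SF3 and U2AF probe sets rose. No test between classes was made.

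**Figure D2:**
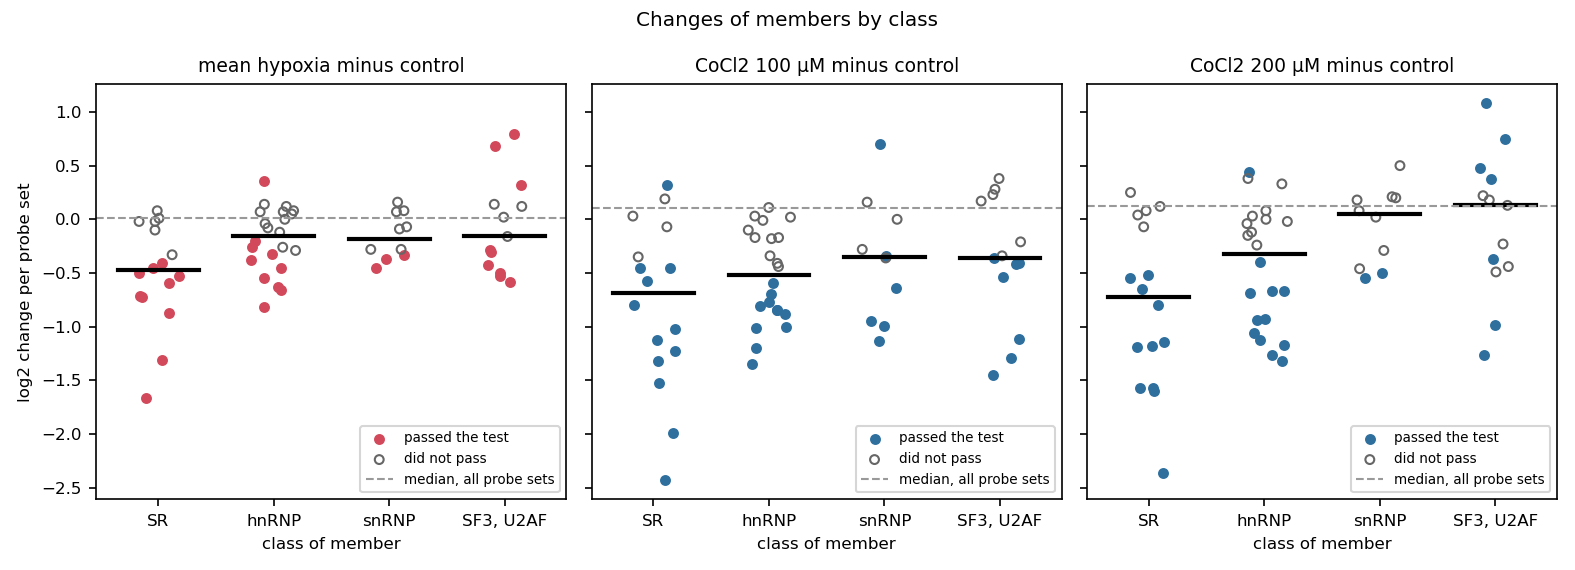
log2 change of every member (points) by class, for mean hypoxia minus control, 100 µM CoCl2 minus control and 200 µM CoCl2 minus control; filled points passed the test, the thick line is the class median and the dashed line the median of all probe sets. The SR class has the lowest median in all 3 panels (-0.47, -0.69 and -0.73).

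Srsf1, also known as SF2/ASF, is an SR protein that acts in both constitutive and alternative splicing. Its probe set 104586_at fell more in hypoxia than any other member. It read 4.78, 5.04 and 5.08 in chamber hypoxia, against 6.42 and 6.45 in the chamber controls. In experiment 1 it read 4.33, 4.32 and 3.86 in hypoxia, against 6.12 and 5.71 in controls. In experiment 2 it read 4.27, 4.20 and 4.53 in hypoxia, against 6.04 and 6.17 in controls. All hypoxia arrays lay below all of their controls. The mean hypoxia change was -1.66 ± 0.10 (SE of the model; adjusted p = 3.1e-11), a 3.16-fold lower level. In experiment 3 the values were 7.02 and 6.62 in controls, 4.17 and 4.60 at 100 µM, and 4.50 and 4.43 at 200 µM. Both doses lay below the controls and overlapped each other. The changes were -2.43 ± 0.19 at 100 µM (adjusted p = 2.3e-09) and -2.36 ± 0.19 at 200 µM (adjusted p = 2.2e-09). The mean CoCl2 effect differed from the mean hypoxia effect by -0.74 (adjusted p = 0.0073).

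The other 3 Srsf1 probe sets moved by different amounts. Probe set 160539_at read 5.46, 5.30 and 5.42 in chamber hypoxia against 6.77 and 6.36 in its controls, 4.95, 5.41 and 4.48 in experiment 1 hypoxia against 6.68 and 6.00, and 4.78, 5.28 and 5.59 in experiment 2 hypoxia against 6.09 and 7.08. It fell by 1.31 ± 0.18 on the log2 scale (adjusted p = 6.2e-06), with no overlap between hypoxia and controls within a set. Its experiment 3 values were 5.99 and 5.59 in controls, 3.48 and 4.12 at 100 µM, and 4.24 and 4.96 at 200 µM. The fall was -1.99 at 100 µM (adjusted p = 0.00012) and -1.19 at 200 µM (adjusted p = 0.0085), and the call at 200 µM was lost without control array 1 (adjusted p = 0.094) or without 200 µM array 1 (0.13). With the Actb covariate the change at 100 µM was -1.24 (adjusted p = 0.047).

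Probe set 160141_r_at, whose suffix marks a set designed under relaxed rules, read 3.06, 3.19 and 2.93 in chamber hypoxia against 3.81 and 3.18, 3.06, 3.03 and 3.16 in experiment 1 hypoxia against 3.66 and 3.21, and 3.73, 2.62 and 2.74 in experiment 2 hypoxia against 3.33 and 3.11. Hypoxia and control arrays overlapped in the chamber set and experiment 2, and the mean change of -0.33 did not pass (adjusted p = 0.12), although without experiment 2 hypoxia array 1 it was -0.44 with adjusted p = 0.006. With CoCl2 this set read 3.76 and 3.76 in controls, 2.26 and 3.03 at 100 µM and 2.73 and 2.51 at 200 µM, changes of -1.12 (adjusted p = 0.0046) and -1.14 (adjusted p = 0.003). The call at 100 µM was lost without 100 µM array 1 (-0.73, adjusted p = 0.11). Probe set 101022_at stayed between 3.53 and 3.94 in all 21 arrays, and its changes of -0.02 in hypoxia, 0.19 at 100 µM and 0.12 at 200 µM did not pass. The last 2 sets lie below the level of 5.03 used as a filter on dim probe sets, and no detection calls were used here.

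**Figure D3:**
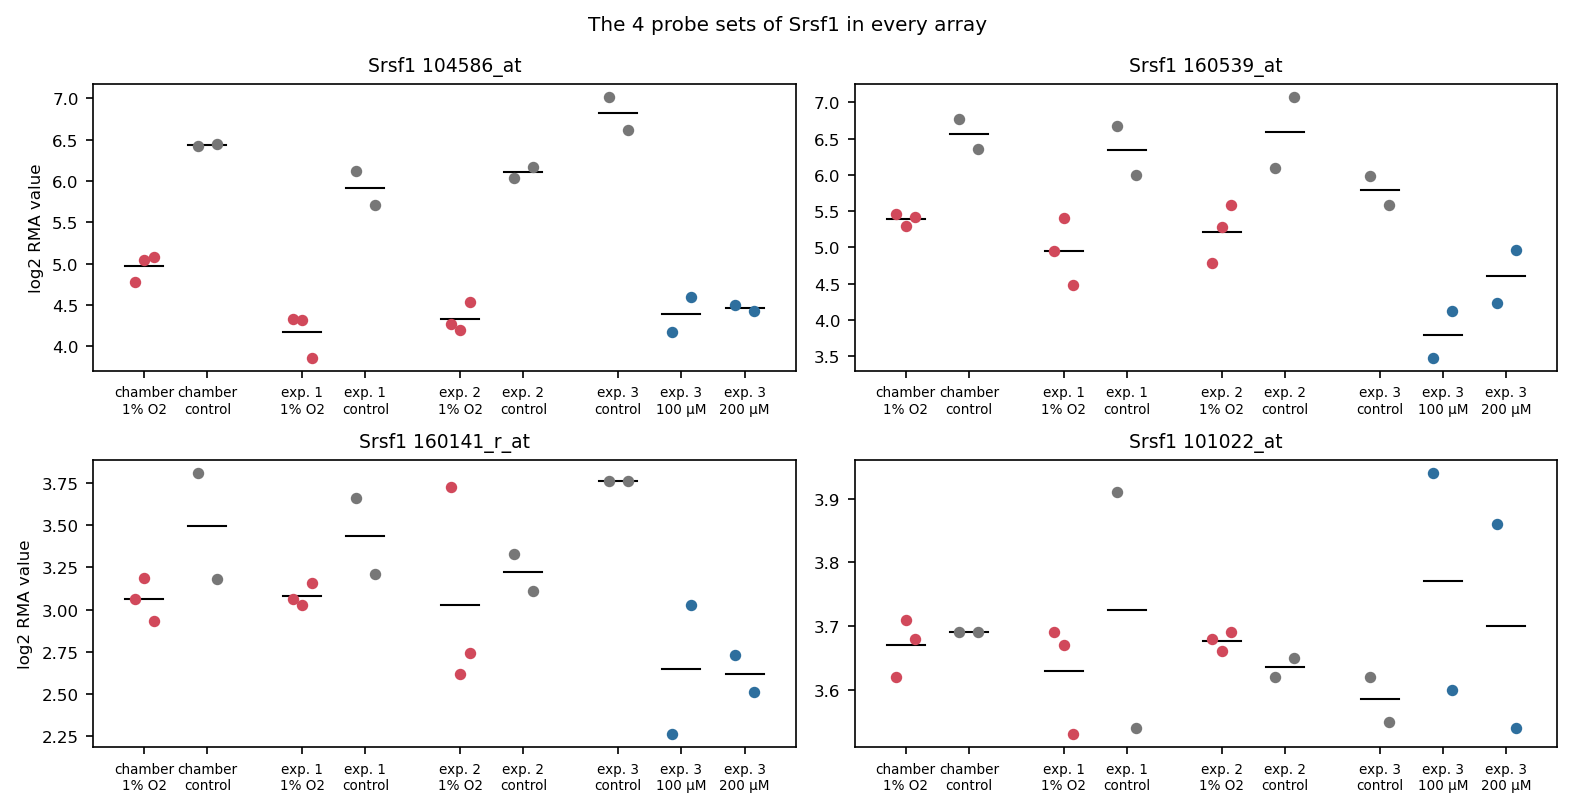
log2 RMA value of the 4 Srsf1 probe sets in every array (points; red, 1% oxygen; blue, CoCl2; grey, control; line, group mean), with its own vertical scale in each panel. For 104586_at and 160539_at all treated arrays lie below the controls of their own set, and in the panel of 101022_at the groups overlap.

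Srsf2 (SC35), an SR protein of nuclear speckles, fell with both of its probe sets. Set 95791_s_at read 8.28, 8.32 and 8.23 in chamber hypoxia against 9.20 and 9.01, 7.71, 7.91 and 7.56 in experiment 1 hypoxia against 8.88 and 8.48, and 7.88, 8.15 and 8.31 in experiment 2 hypoxia against 8.83 and 9.03. The ranges did not overlap in any set, and the mean change was -0.87 ± 0.09 (adjusted p = 9.3e-08). In experiment 3 it read 9.37 and 9.25 in controls, 7.58 and 7.99 at 100 µM and 7.80 and 7.67 at 200 µM, changes of -1.52 and -1.57. Set 94017_s_at read 10.09, 10.24 and 10.20 in chamber hypoxia against 10.88 and 11.04, 9.91, 10.14 and 9.79 in experiment 1 hypoxia against 10.85 and 10.65, and 10.30, 10.32 and 10.17 in experiment 2 hypoxia against 10.81 and 10.85. It too showed no overlap, and changed by -0.72 ± 0.07 (adjusted p = 1.6e-07). The experiment 3 values were 11.46 and 11.23 in controls, 10.18 and 10.48 at 100 µM and 10.30 and 10.02 at 200 µM, changes of -1.02 and -1.18.

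Srsf3 (SRp20), the smallest SR protein, fell as well. Set 101003_at read 4.49, 4.62 and 4.42 in chamber hypoxia against 5.20 and 5.09, 4.26, 4.34 and 4.02 in experiment 1 hypoxia against 5.02 and 5.05, and 4.20, 4.31 and 4.50 in experiment 2 hypoxia against 4.89 and 5.11. All hypoxia arrays were below their controls, and the mean change was -0.71 ± 0.08 (adjusted p = 2.4e-07). With CoCl2 the values were 5.57 and 5.43 in controls, 4.02 and 4.33 at 100 µM and 4.03 and 3.76 at 200 µM, changes of -1.32 and -1.60 (adjusted p = 3.9e-07 and 1.5e-08). Set 101004_f_at, whose suffix marks probes shared by a sequence family, read 6.97, 7.38 and 7.19 in chamber hypoxia against 8.26 and 7.88, 6.94, 7.37 and 6.84 in experiment 1 hypoxia against 7.20 and 7.43, and 7.01, 6.92 and 7.01 in experiment 2 hypoxia against 6.76 and 7.56. It overlapped its controls in experiments 1 and 2, and changed by -0.45 ± 0.13 (adjusted p = 0.012). With CoCl2 it read 8.13 and 8.04 in controls, 6.5 and 7.21 at 100 µM and 6.76 and 6.27 at 200 µM, changes of -1.23 and -1.57.

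The remaining SR proteins moved less. Srsf6 (SRp55) changed by -0.59 ± 0.08 in hypoxia (adjusted p = 4.9e-06), -0.57 at 100 µM and -0.80 at 200 µM. Srsf9 (SRp30c) changed by -0.53 in hypoxia (adjusted p = 2.3e-05), -0.80 at 100 µM and -0.55 at 200 µM. Srsf5 (SRp40) fell in hypoxia by 0.41 ± 0.08 (adjusted p = 0.00046), while its CoCl2 changes of 0.03 and -0.07 did not pass. Srsf11 did not pass in any of these comparisons. Srsf4 (SRp75) passed with 1 of its 2 sets and only at 100 µM: 102093_f_at read 5.80 and 5.85 in controls, 6.21 and 6.08 at 100 µM and 6.23 and 5.92 at 200 µM, a rise of 0.32 at 100 µM (adjusted p = 0.042) that was lost without control array 1 (0.18), control array 2 (0.092) or 100 µM array 1 (0.23), and was 0.08 with the Actb covariate. In the hypoxia sets 102093_f_at read 5.77, 5.85 and 5.63 in chamber hypoxia against 5.79 and 5.73, 6.15, 5.93 and 6.07 in experiment 1 hypoxia against 5.94 and 5.99, and 5.72, 5.74 and 5.68 in experiment 2 hypoxia against 5.81 and 5.71, with overlap in every set.

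Srsf10 (SRp38), which acts as a splicing repressor when dephosphorylated, differed between its probe sets in hypoxia. Set 102046_at read 5.01, 5.14 and 5.14 in chamber hypoxia against 5.57 and 5.48, 4.62, 4.72 and 5.03 in experiment 1 hypoxia against 5.38 and 5.37, and 4.81, 4.87 and 4.76 in experiment 2 hypoxia against 5.21 and 5.39. It changed by -0.50 ± 0.07 (adjusted p = 5.3e-06) with no overlap within a set. Set 98048_at read 6.23, 6.35 and 6.29 in chamber hypoxia against 6.62 and 6.55, 6.65, 7.08 and 6.61 in experiment 1 hypoxia against 6.61 and 6.44, and 6.57, 6.42 and 6.48 in experiment 2 hypoxia against 6.39 and 6.64. Its mean change of -0.02 did not pass, since it lay below its controls in the chamber set, reached or exceeded them in experiment 1 and overlapped them in experiment 2. With CoCl2, 102046_at read 5.55 and 5.44 in controls, 4.94 and 5.16 at 100 µM and 4.99 and 4.96 at 200 µM. For 98048_at these values were 6.55 and 6.54 in controls, 5.86 and 6.35 at 100 µM and 5.88 and 5.91 at 200 µM. Both sets changed by -0.45 at 100 µM, and by -0.52 and -0.65 at 200 µM. The 100 µM calls were lost without control array 1 (adjusted p = 0.096 and 0.13) or without 100 µM array 1 (0.13 and 0.47), and that of 98048_at also without control array 2 (0.099), while its change was -0.69 without 100 µM array 2. With the Actb covariate both 100 µM calls were lost, at -0.38 (adjusted p = 0.16) and -0.39 (0.26).

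Among the hnRNPs, Hnrnpab, an RNA- and DNA-binding protein of the A/B type, fell most in hypoxia. Its set 94896_at read 7.72, 7.83 and 7.73 in chamber hypoxia against 8.59 and 8.71, 7.91, 7.65 and 7.76 in experiment 1 hypoxia against 8.59 and 8.41, and 7.53, 7.62 and 7.72 in experiment 2 hypoxia against 8.55 and 8.38. No hypoxia array reached a control of its set, and the change was -0.82 ± 0.07 (adjusted p = 2.5e-08). In experiment 3 it read 8.77 and 8.34 in controls, 7.04 and 7.37 at 100 µM and 7.31 and 7.27 at 200 µM, changes of -1.35 and -1.26 (adjusted p = 2.7e-07 and 3.9e-07). The second Hnrnpab set, 95911_at, changed by -0.38 in hypoxia, -0.81 at 100 µM and -0.94 at 200 µM, and passed each time.

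Hnrnpm, which binds GU-rich RNA, changed by -0.66 ± 0.07 in hypoxia (adjusted p = 4.3e-07), -0.84 at 100 µM and -0.67 at 200 µM. Hnrnpd (AUF1), which binds AU-rich elements and regulates mRNA decay, changed by -0.55 ± 0.07 in hypoxia (adjusted p = 4.9e-06), -0.88 at 100 µM and -1.17 at 200 µM. Hnrnpa2b1 passed in hypoxia with 93117_at (-0.45, adjusted p = 0.0031) and not with 93118_at (-0.26), while both sets fell at 100 µM (-1.20 and -1.0) and at 200 µM (-0.93 and -1.12). Hnrnpc, a core component of hnRNP particles, passed only with CoCl2, with -0.77 at 100 µM and -0.69 at 200 µM. Hnrnpk passed only at 200 µM (-0.67, adjusted p = 0.029). Hnrnph1 changed by -0.32 in hypoxia and -0.70 at 100 µM, and its -0.24 at 200 µM did not pass. Hnrnph3 passed in hypoxia alone (-0.26, adjusted p = 0.0016). Hnrnpll, a regulator of Ptprc (CD45) splicing in lymphocytes, changed by -0.20 in hypoxia (adjusted p = 0.045), -0.59 at 100 µM and -0.40 at 200 µM. Hnrnpl, Hnrnph2 and both sets each of Hnrnpu and Hnrnpul2 passed in none of these 3 comparisons.

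Hnrnpr, which carries an acidic domain and several RNA recognition motifs, moved with CoCl2 and not with hypoxia. It read 6.81, 6.92 and 7.08 in chamber hypoxia against 7.10 and 7.08, 6.99, 6.96 and 6.96 in experiment 1 hypoxia against 6.84 and 6.84, and 7.12, 6.96 and 6.97 in experiment 2 hypoxia against 6.56 and 6.93. Chamber arrays reached their controls from below, whereas those of the incubator lay above theirs, and the mean change of 0.08 did not pass. In experiment 3 it read 7.62 and 7.61 in controls, 6.44 and 7.12 at 100 µM and 6.47 and 6.12 at 200 µM. Every CoCl2 array was below both controls. The change was -0.84 ± 0.17 at 100 µM (adjusted p = 0.00069) and -1.32 ± 0.17 at 200 µM (adjusted p = 2.5e-06), and the mean CoCl2 effect differed from the mean hypoxia effect by -1.16 ± 0.17 (adjusted p = 3.9e-05).

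Hnrnpdl, a relative of Hnrnpd that regulates its own splicing, gave 3 different readings. Set 96084_at read 5.68, 5.86 and 5.74 in chamber hypoxia against 6.59 and 6.48, 5.59, 5.65 and 5.64 in experiment 1 hypoxia against 6.10 and 5.74, and 5.55, 5.56 and 5.45 in experiment 2 hypoxia against 6.36 and 6.31, all below their controls (-0.63 ± 0.09, adjusted p = 1.4e-05). It read 7.27 and 7.08 in experiment 3 controls, 5.83 and 6.51 at 100 µM and 6.32 and 5.92 at 200 µM (-1.01 and -1.06). The change at 100 µM was -0.66 without 100 µM array 1 and still passed (adjusted p = 0.0051). Set 96083_s_at had no call for mean hypoxia or for either CoCl2 dose. It read 8.82 and 8.66 in experiment 3 controls, 8.37 and 8.78 at 100 µM and 9.45 and 8.80 at 200 µM, with changes of -0.17 and 0.38, and its hypoxia values are given with the comparison of devices. The change at 200 µM rested on 1 array: it was 0.06 without 200 µM array 1 (adjusted p = 0.83) and 0.71 without 200 µM array 2 (0.0049). With the Actb covariate it was 0.64 (adjusted p = 0.014). Set 161372_f_at stayed between 2.10 and 2.70 in all arrays, far under the dim level, and passed nowhere.

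Hnrnpa1, a splicing repressor, has a single member probe set, 92724_at, and its mean hypoxia change was 0.36 ± 0.09 (adjusted p = 0.004). The sets differed, with -0.24 in the chamber, 0.93 in experiment 1 and 0.39 in experiment 2, and only experiment 1 passed. At 200 µM it rose by 0.44 (adjusted p = 0.047), with 6.75 and 6.92 in controls, 6.61 and 7.12 at 100 µM and 7.30 and 7.25 at 200 µM. That call was lost without any 1 of the 4 arrays involved (adjusted p = 0.069 to 0.24), and with the Actb covariate (0.42, adjusted p = 0.12).

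Promoters are shown for the 5 genes with the largest called changes in hypoxia, 4 that fell and Sf3b1, which rose, because these genes changed in the same direction in all 3 sets. The sequences are the 250 bases before a transcript start in RefSeq (GRCm38.p6), written 5′ to 3′ on the strand of the gene, and capitals mark ACGTG or GCGTG, the core letters of the site bound by hypoxia-inducible factors, on either strand. The windows are chr11:88047123-88047372 (+) for Srsf1, chr11:116853095-116853344 (-) for Srsf2, chr17:29032410-29032659 (+) for Srsf3, chr11:51606882-51607131 (-) for Hnrnpab and chr1:55027479-55027728 (-) for Sf3b1. Those of Srsf1 and Srsf2 lie inside the annotated genes (88046499-88053757 and 116849897-116853675), so they precede an internal transcript start and not the outermost one. That of Sf3b1 overlaps its annotated gene (54985169-55027501), so its start is not the outermost one either. The Sf3b1 match 10 bases before that start lies in the overlap.
Srsf1: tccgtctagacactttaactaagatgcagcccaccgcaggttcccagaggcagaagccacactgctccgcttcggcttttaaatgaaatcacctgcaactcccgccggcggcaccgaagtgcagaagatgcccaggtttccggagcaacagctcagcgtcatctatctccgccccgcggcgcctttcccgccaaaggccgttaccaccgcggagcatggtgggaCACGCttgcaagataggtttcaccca
Srsf2: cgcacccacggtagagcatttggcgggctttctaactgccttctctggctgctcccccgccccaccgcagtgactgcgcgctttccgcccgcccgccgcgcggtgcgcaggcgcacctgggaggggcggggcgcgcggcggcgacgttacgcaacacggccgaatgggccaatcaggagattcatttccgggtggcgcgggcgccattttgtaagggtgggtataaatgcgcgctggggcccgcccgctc
Srsf3: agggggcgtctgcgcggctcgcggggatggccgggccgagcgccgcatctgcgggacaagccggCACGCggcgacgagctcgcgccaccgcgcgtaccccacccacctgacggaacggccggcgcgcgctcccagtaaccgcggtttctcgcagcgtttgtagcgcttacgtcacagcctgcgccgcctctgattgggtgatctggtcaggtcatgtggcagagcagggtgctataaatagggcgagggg
Hnrnpab: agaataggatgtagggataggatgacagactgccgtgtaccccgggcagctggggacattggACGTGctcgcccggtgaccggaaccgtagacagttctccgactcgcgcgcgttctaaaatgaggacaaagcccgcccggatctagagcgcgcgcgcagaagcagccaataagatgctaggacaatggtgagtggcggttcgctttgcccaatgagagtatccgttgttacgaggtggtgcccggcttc
Sf3b1: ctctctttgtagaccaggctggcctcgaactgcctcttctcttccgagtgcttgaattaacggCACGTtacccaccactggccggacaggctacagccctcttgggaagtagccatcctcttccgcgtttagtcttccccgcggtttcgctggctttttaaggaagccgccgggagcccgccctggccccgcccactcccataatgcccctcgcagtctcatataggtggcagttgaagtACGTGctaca
The core letters occurred once in Srsf1, starting 26 bases before the start, once in Srsf3 at 186 bases, once in Hnrnpab at 188 bases, in Sf3b1 at 187 and 10 bases, and in the Srsf2 window not at all. Of all 32851 promoter windows of this length in RefSeq, 38.6% held ACGTG or GCGTG. Among the 49 windows of the 38 member genes found in that table the share was 65.3%, with 70.4% in the 27 windows of members that fell in hypoxia and 66.7% in the 3 windows of members that rose. The member windows were richer in G and C (median 60.8%) than all windows (52.4%), and the part of base composition in these shares was not tested. CACGTG, which contains ACGTG, was in 6.02% of all windows and 2.04% of member windows, and CCAAT was in 33.8% and 44.9%, on either strand. A match of letters is a description and no binding was measured.

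Of the snRNP proteins, 3 of 10 probe sets fell in mean hypoxia. Snrpa1, a protein of the U2 snRNP, changed by -0.45 ± 0.10 (adjusted p = 0.0011), and Snrpc, a protein of the U1 snRNP, by -0.37 (adjusted p = 0.015). Snrpb, which encodes the core protein SmB, had 2 probe sets. Set 160555_r_at read 12.16, 12.11 and 12.02 in chamber hypoxia against 12.37 and 12.40, 11.91, 12.02 and 12.10 in experiment 1 hypoxia against 12.36 and 12.33, and 11.90, 11.78 and 11.80 in experiment 2 hypoxia against 12.33 and 12.08, all below their controls (-0.33 ± 0.06, adjusted p = 0.00015). It read 12.43 and 12.47 in experiment 3 controls, 12.21 and 12.02 at 100 µM and 11.94 and 11.86 at 200 µM, changes of -0.34 and -0.55. The 100 µM call was lost without control array 1 (adjusted p = 0.086), control array 2 (0.1) or 100 µM array 2 (0.13), and with the Actb covariate (-0.42, adjusted p = 0.064). Set 161335_r_at stayed between 1.85 and 2.55 in all arrays and passed nowhere. Snrp1c-ps2, whose symbol marks a pseudogene, passed in none of the 3 comparisons. Of these 3 comparisons Snrpd3 (SmD3) passed at 100 µM alone (-0.95 ± 0.27, adjusted p = 0.0098). Snrpe (SmE) fell at 100 µM (-0.64, adjusted p = 0.014) and in the chamber set (-0.53, adjusted p = 0.036).

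Snrpb2, another U2 snRNP protein, had 2 sets with opposite signs under CoCl2. Set 162026_r_at read 5.87 and 6.12 in controls, 7.10 and 6.28 at 100 µM and 6.65 and 6.34 at 200 µM, a rise of 0.70 at 100 µM (adjusted p = 0.014) that was 0.29 and lost without 100 µM array 1, lost without control array 1 (adjusted p = 0.13) and 0.29 with the Actb covariate. Without 100 µM array 2 it was 1.11. Its change of 0.50 at 200 µM did not pass, and it was 0.35 without 200 µM array 1, 0.66 without 200 µM array 2 (adjusted p = 0.048) and 0.80 with the Actb covariate (adjusted p = 0.011). Set 92839_f_at read 3.94 and 3.77 in controls, 3.52 and 3.63 at 100 µM and 3.46 and 3.26 at 200 µM, and its change of -0.50 at 200 µM (adjusted p = 0.02) was lost without control array 1 (0.15) or 200 µM array 2 (0.12), and with the Actb covariate (-0.46, adjusted p = 0.077). In hypoxia neither passed. Over the 3 hypoxia sets 162026_r_at read 6.59, 6.72 and 6.60 against 6.08 and 6.13 in the chamber, 6.73, 6.52 and 6.06 against 6.60 and 6.41 in experiment 1, and 6.15, 6.05 and 6.20 against 6.16 and 6.08 in experiment 2. For 92839_f_at the values were 3.8, 3.66 and 3.48 against 3.60 and 3.72, 3.53, 3.34 and 3.63 against 3.25 and 3.54, and 3.28, 3.57 and 3.52 against 3.05 and 3.57. Only the chamber values of 162026_r_at stood clear of their controls.

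Of the SF3B complex, which holds the branch point, Sf3b1 (SF3B1, its largest subunit) rose with both probe sets. Set 97808_at read 8.18, 8.87 and 8.78 in chamber hypoxia against 7.96 and 8.11, 8.20, 8.35 and 8.03 in experiment 1 hypoxia against 7.09 and 7.61, and 8.20, 8.25 and 8.20 in experiment 2 hypoxia against 7.59 and 7.57. All hypoxia arrays exceeded their controls, and the mean change was 0.68 ± 0.10 (adjusted p = 1.7e-05). Set 96777_at read 7.44, 7.61 and 7.66 in chamber hypoxia against 7.16 and 7.0, 7.57, 7.99 and 7.5 in experiment 1 hypoxia against 6.49 and 6.76, and 7.28, 7.37 and 7.51 in experiment 2 hypoxia against 6.28 and 6.86. It likewise stood above its controls in each set, with a mean change of 0.79 ± 0.11 (adjusted p = 6.1e-06), or 1.73-fold. With CoCl2, 97808_at read 8.13 and 7.72 in controls, 8.22 and 8.39 at 100 µM and 9.06 and 8.95 at 200 µM, and 96777_at read 7.33 and 7.17 in controls, 7.23 and 7.73 at 100 µM and 8.26 and 7.75 at 200 µM. At 100 µM the changes of 0.38 and 0.23 did not pass. At 200 µM both rose, by 1.08 ± 0.19 (adjusted p = 0.00013) and 0.75 ± 0.20 (adjusted p = 0.0061), and the second call was lost without control array 2 (0.053) or 200 µM array 1 (0.11).

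Other SF3B subunits went differently. Sf3b6 (p14) changed by -0.50 ± 0.10 in hypoxia (adjusted p = 0.00038) and -0.54 at 100 µM, and its -0.44 at 200 µM did not pass. Sf3b5 changed by -1.11 ± 0.13 at 100 µM (adjusted p = 1.9e-06) and -0.98 at 200 µM, without a call in mean hypoxia. Sf3b2 and Sf3b3 passed in none of the 3 comparisons.

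In the SF3A complex, Sf3a3 read 7.10, 6.97 and 7.16 in chamber hypoxia against 8.01 and 7.85, 7.49, 7.56 and 7.31 in experiment 1 hypoxia against 7.61 and 7.27, and 7.18, 7.44 and 7.19 in experiment 2 hypoxia against 7.81 and 7.61. It overlapped its controls in experiment 1 only, and changed by -0.43 ± 0.10 (adjusted p = 0.0022). With CoCl2 it read 8.04 and 7.84 in controls, 6.14 and 6.85 at 100 µM and 6.46 and 6.90 at 200 µM, changes of -1.45 ± 0.19 (adjusted p = 4.9e-06) and -1.26 ± 0.19 (adjusted p = 1.8e-05). The mean CoCl2 effect was the lower one, with a difference from hypoxia of -0.93 ± 0.19 (adjusted p = 0.0013). Sf3a2 had 2 sets that differed. Set 92196_f_at read 9.63, 9.48 and 9.52 in chamber hypoxia against 9.90 and 10.17, 9.62, 9.46 and 9.82 in experiment 1 hypoxia against 10.15 and 10.38, and 9.45, 9.31 and 9.45 in experiment 2 hypoxia against 9.96 and 9.77, all below their controls (-0.53 ± 0.07, adjusted p = 4.8e-06). Set 92197_r_at read 10.03, 9.92 and 9.85 in chamber hypoxia against 9.68 and 9.72, 9.89, 9.71 and 10.01 in experiment 1 hypoxia against 9.95 and 9.90, and 9.87, 9.69 and 9.69 in experiment 2 hypoxia against 9.96 and 9.79, with a mean change of 0.02 that did not pass. It stood above its controls in the chamber set and not in the others. In experiment 3, 92196_f_at read 10.35 and 10.34 in controls, 9.93 and 9.94 at 100 µM and 10.23 and 9.99 at 200 µM, and 92197_r_at read 9.64 and 9.70, 10.14 and 9.77, and 10.18 and 9.93. The fall of 92196_f_at by 0.41 at 100 µM (adjusted p = 0.024) was lost without control array 1, control array 2 or 100 µM array 1 (adjusted p = 0.1, 0.081 and 0.093). The rise of 92197_r_at by 0.38 at 200 µM (adjusted p = 0.03) was lost without control array 1, control array 2 or 200 µM array 1 (0.14, 0.075 and 0.24), and at 100 µM its 0.28 passed only without 100 µM array 2 (0.47, adjusted p = 0.013), being 0.09 without 100 µM array 1 and 0.04 with the Actb covariate.

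U2AF recognises the polypyrimidine tract and the AG at the end of the intron. U2af2 (U2AF65), the large subunit, changed by -0.29 ± 0.06 in hypoxia (adjusted p = 0.00075), -0.42 at 100 µM and -0.37 at 200 µM. U2af1 (U2AF35), the small subunit, changed by -0.58 ± 0.11 in hypoxia (adjusted p = 0.00036) and -1.29 ± 0.21 at 100 µM (adjusted p = 9.2e-05), while its -0.49 at 200 µM did not pass. U2af1l4, a relative of the small subunit, changed by -0.30 in hypoxia (adjusted p = 0.011). It read 6.93, 6.61 and 6.88 in chamber hypoxia against 7.18 and 7.38, 7.05, 7.05 and 7.10 in experiment 1 hypoxia against 7.18 and 7.34, and 6.96, 7.11 and 7.14 in experiment 2 hypoxia against 7.39 and 7.20, below its controls in every set. At 200 µM it rose by 0.48 (adjusted p = 0.025), with 6.59 and 6.88 in controls, 6.61 and 6.43 at 100 µM and 6.91 and 7.52 at 200 µM. That rise was 0.18 without 200 µM array 2 and 0.33 without control array 1, both without a call, 0.78 without 200 µM array 1, and 0.23 with the Actb covariate.

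**Figure D4:**
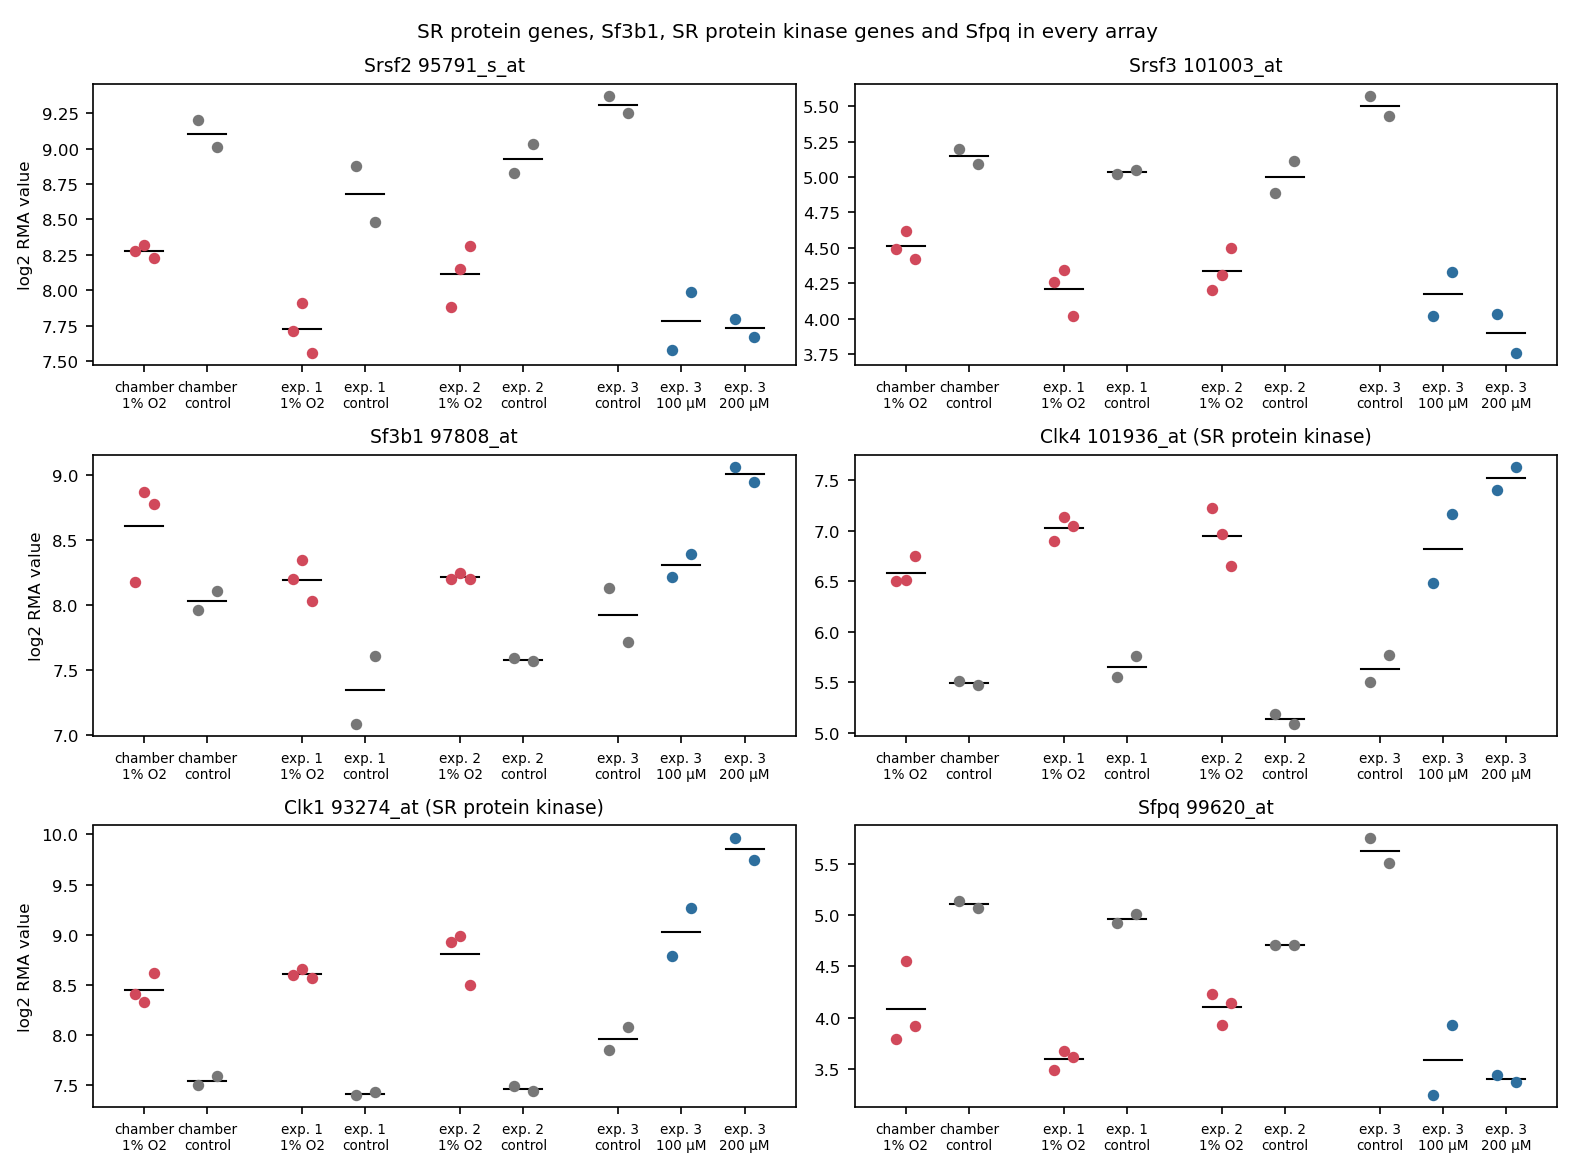
log2 RMA value in every array (points; red, 1% oxygen; blue, CoCl2; grey, control; line, group mean) for Srsf2, Srsf3, Sf3b1, the SR protein kinases Clk4 and Clk1, and Sfpq, each panel with its own scale. The Srsf2, Srsf3 and Sfpq panels have treated arrays below their controls, and the Sf3b1 and Clk panels have them above.

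The members were set beside other genes of the splicing pathway, from lists chosen with earlier results of these data known. The shares over all probe sets to read these counts against are 16.8% lower and 11.2% higher in hypoxia, 18% lower and 16.3% higher at 100 µM, and 19.7% lower and 18.2% higher at 200 µM. Of 59 probe sets for spliceosome core proteins outside the rule, 19 fell and 4 rose in hypoxia, 21 fell and 3 rose at 100 µM, and 13 fell and 10 rose at 200 µM. The falls made up 32.2% of that list in hypoxia, 35.6% at 100 µM and 22% at 200 µM, the last with 16.9% rises, near the shares of all probe sets. The LSM proteins bind U6 snRNA, and Lsm2 (-0.86, adjusted p = 5e-10) and Lsm7 (-0.82, adjusted p = 3.6e-07) fell most in hypoxia, followed by Prpf19 97395_at (-0.70), a ubiquitin ligase of the spliceosome, and the SF3B subunit Phf5a (-0.64). Cwc22 (0.39), Prpf38b (0.38) and Smndc1 (0.38) rose most. Of 17 probe sets for snRNP assembly and import, 9 fell and 0 rose in hypoxia, led by the cap-binding subunit Ncbp2 (-0.69) and the methylosome protein Wdr77 (-0.60), 12 fell and 0 rose at 100 µM, and 10 fell and 1 rose at 200 µM (52.9%, 70.6% and 58.8% lower). Of 3 exon junction complex probe sets, 2 fell in hypoxia, among them Alyref, an adaptor for mRNA export (-1.06, adjusted p = 6.4e-07).

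SR-related proteins and SR kinases split, with 8 of 27 probe sets higher and 5 lower in hypoxia, 4 higher and 8 lower at 100 µM, and 7 higher and 8 lower at 200 µM (29.6%, 14.8% and 25.9% higher, 18.5%, 29.6% and 29.6% lower). The 4 highest in each comparison were CLK kinases, which phosphorylate SR proteins in the nucleus. Clk4 101936_at read 6.5, 6.51 and 6.75 in chamber hypoxia against 5.51 and 5.47, 6.90, 7.14 and 7.05 in experiment 1 hypoxia against 5.55 and 5.76, and 7.23, 6.97 and 6.65 in experiment 2 hypoxia against 5.18 and 5.09. Every hypoxia array was above its controls, and the change was 1.43 ± 0.10 (adjusted p = 5e-10). In experiment 3 it read 5.50 and 5.77 in controls, 6.48 and 7.17 at 100 µM and 7.41 and 7.63 at 200 µM, changes of 1.19 and 1.89. Clk1 rose by 1.15 ± 0.09 in hypoxia (adjusted p = 1.2e-09), 1.06 at 100 µM and 1.88 at 200 µM. Clk3 rose by 1.22 ± 0.08 in hypoxia (adjusted p = 2.2e-10), 0.74 at 100 µM and 1.60 at 200 µM. Luc7l3, a U1-associated protein, fell by 0.71 ± 0.11 in hypoxia (adjusted p = 1.9e-05), and the SR-like factor Tra2b changed by -0.47 in hypoxia and -1.0 at 100 µM.

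Of 56 probe sets for other splicing regulators, 12 fell and 8 rose in hypoxia, 27 fell and 4 rose at 100 µM, and 23 fell and 3 rose at 200 µM (21.4%, 48.2% and 41.1% lower). The lowest were paraspeckle proteins. Sfpq 99620_at read 3.79, 4.55 and 3.92 in chamber hypoxia against 5.14 and 5.07, 3.49, 3.67 and 3.62 in experiment 1 hypoxia against 4.92 and 5.01, and 4.23, 3.93 and 4.14 in experiment 2 hypoxia against 4.71 and 4.71, with no overlap (-1.0 ± 0.11, adjusted p = 2.5e-07). It read 5.75 and 5.51 in experiment 3 controls, 3.25 and 3.93 at 100 µM and 3.44 and 3.37 at 200 µM (-2.04 and -2.23). Sfpq 99621_s_at and 102144_f_at also fell in hypoxia (-1.02 and -0.93), whereas 97161_at rose by 0.25, with an adjusted p that rounds to 0.05, and 161579_r_at did not pass. Pspc1 changed by -0.80 ± 0.09 in hypoxia (adjusted p = 3.2e-07), -2.11 at 100 µM and -2.60 at 200 µM.

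Between the doses, 8 members were higher at 200 µM than at 100 µM and 0 were lower, where 6.83% of all probe sets were higher and 7.54% lower (14.4% either way). They were Snrpg, Snrpa1 and Snrpe of the snRNP proteins, U2af1, U2af1l4, Sf3b1 97808_at and Sf3a1 of the SF3 and U2AF factors, and Hnrnpdl 96083_s_at. None was an SR protein. The 13.1% of members called either way was near the 14.4% of all probe sets. Snrpg, a ring protein of the Sm core, read 9.34, 9.34 and 9.55 in chamber hypoxia against 10.12 and 10.26, 9.94, 10.07 and 9.95 in experiment 1 hypoxia against 9.95 and 9.82, and 9.95, 9.86 and 9.93 in experiment 2 hypoxia against 10.05 and 10.09. It lay below its controls in the chamber set (-0.78, adjusted p = 0.0059) and in experiment 2, and overlapped them in experiment 1. In experiment 3 it read 8.80 and 9.25 in controls, 7.83 and 7.96 at 100 µM and 8.70 and 9.75 at 200 µM. The 100 µM arrays lay below all others of that experiment, and the dose difference was 1.33 ± 0.21 (adjusted p = 0.0002). It was 0.81 without 200 µM array 2 and 1.85 without 200 µM array 1, with a call both times.

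U2af1 read 9.04, 8.51 and 8.94 in chamber hypoxia against 9.77 and 9.58, 9.56, 9.66 and 9.43 in experiment 1 hypoxia against 9.76 and 9.94, and 9.14, 9.08 and 8.94 in experiment 2 hypoxia against 9.59 and 9.71, below its controls in each set. In experiment 3 it read 9.41 and 9.33 in controls, 7.86 and 8.30 at 100 µM and 8.43 and 9.33 at 200 µM, a dose difference of 0.80 ± 0.21 (adjusted p = 0.015). Snrpa1 read 5.23, 5.58 and 5.59 in chamber hypoxia against 6.41 and 6.06, 5.67, 5.91 and 5.38 in experiment 1 hypoxia against 5.76 and 5.84, and 5.55, 5.35 and 5.37 in experiment 2 hypoxia against 5.78 and 5.96. It overlapped its controls in experiment 1 only, and in experiment 3 it read 5.87 and 5.37 in controls, 4.44 and 4.82 at 100 µM and 5.25 and 5.42 at 200 µM, a dose difference of 0.71 (adjusted p = 0.014). The calls of U2af1 and Snrpa1 were lost without 100 µM array 1 (0.58 and 0.51) or 200 µM array 2 (0.34 and 0.62), and the U2af1 difference was 1.25 without 200 µM array 1. The 8 calls became 20 without 100 µM array 2, 3 without 200 µM array 2 and 0 with the Actb covariate, under which the dose difference of Snrpg was 0.30 (adjusted p = 0.74), that of U2af1 -0.38 and that of Snrpa1 0.37. The slope of that covariate rests mainly on the pair of 200 µM arrays, which belong to this comparison. Fitted on experiment 3 alone, the count was 0.

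CoCl2 was set against hypoxia as the mean of its 2 dose effects minus the mean hypoxia effect. There 15 members were lower and 0 higher, where 13.8% of all probe sets were lower and 8.02% higher (21.8% either way). The 24.6% of members called either way was near that last share. SR proteins gave 6 of the 15, hnRNPs 5, SF3 and U2AF factors 3 and snRNP proteins 1. Hnrnpr (-1.16), Srsf3 101004_f_at (-0.96, adjusted p = 0.0081) and Sf3a3 (-0.93) differed most, and the call of Srsf3 101004_f_at was lost without control array 1 of experiment 3 (adjusted p = 0.065). The count was 4 without that array and 26 without 100 µM array 2. Experiment, RNA quality and treatment cannot be told apart in this comparison, because all CoCl2 arrays belong to experiment 3.

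**Figure D5:**
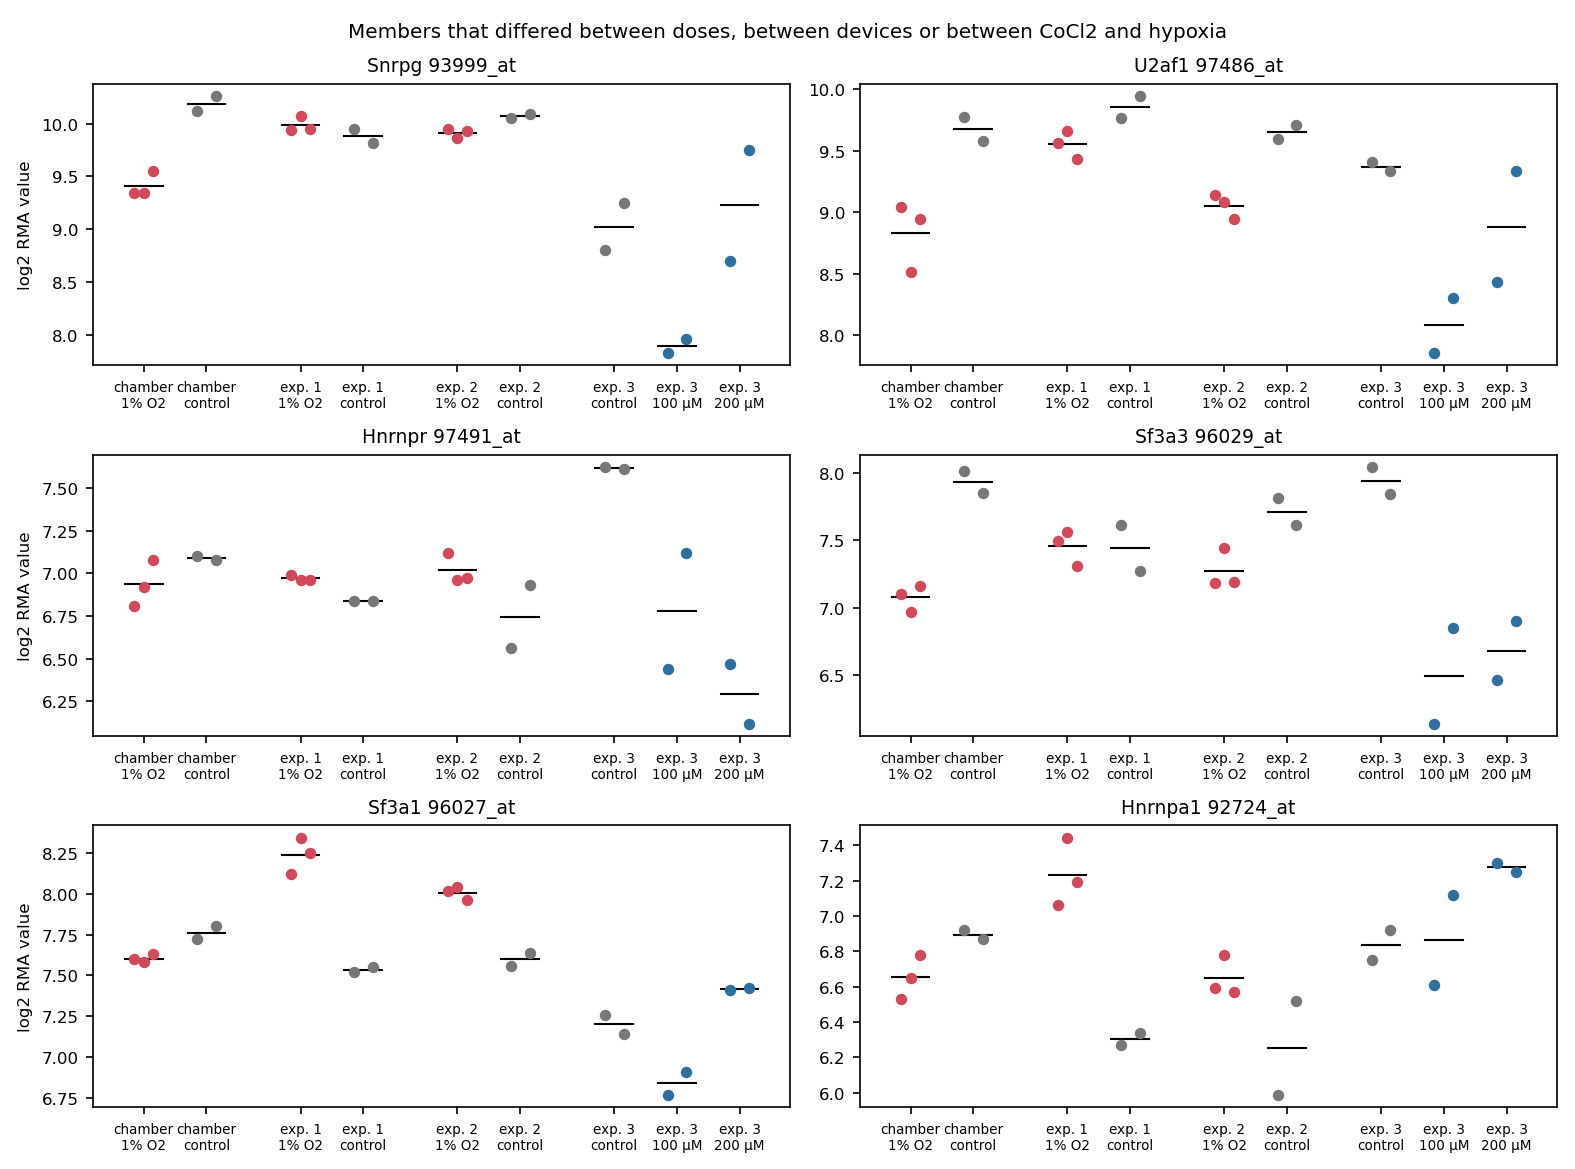
log2 RMA value in every array (points; red, 1% oxygen; blue, CoCl2; grey, control; line, group mean) for 6 members that differed between doses, between devices or between CoCl2 and hypoxia. Snrpg and U2af1 are lowest at 100 µM, Hnrnpr and Sf3a3 lie below their controls at both doses, and the hypoxia arrays of Sf3a1 and Hnrnpa1 exceed their controls in experiments 1 and 2 but not in the chamber set.

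Between devices, the hypoxia effect of 4 members was lower in the chamber than in the incubator and that of 0 was higher, where 1.02% of all probe sets were lower and 0.175% higher (1.2% either way). Hnrnpa1 92724_at read 6.53, 6.65 and 6.78 in chamber hypoxia against 6.92 and 6.87, 7.06, 7.44 and 7.19 in experiment 1 hypoxia against 6.27 and 6.34, and 6.59, 6.78 and 6.57 in experiment 2 hypoxia against 5.99 and 6.52. Hypoxia arrays were below their controls in the chamber and above them in both incubator experiments. Sf3a1, a subunit of the SF3A complex, read 7.60, 7.58 and 7.63 in chamber hypoxia against 7.72 and 7.80, 8.12, 8.34 and 8.25 in experiment 1 hypoxia against 7.52 and 7.55, and 8.02, 8.04 and 7.96 in experiment 2 hypoxia against 7.56 and 7.64. It showed the same order, and its mean hypoxia change was 0.32 ± 0.05 (adjusted p = 0.00011). In experiment 3 Sf3a1 read 7.26 and 7.14 in controls, 6.77 and 6.91 at 100 µM and 7.41 and 7.42 at 200 µM, and it fell at 100 µM (-0.36 ± 0.10, adjusted p = 0.012). Hnrnpdl 96083_s_at read 8.07, 8.33 and 8.46 in chamber hypoxia against 8.83 and 8.83, 8.52, 8.70 and 8.45 in experiment 1 hypoxia against 7.92 and 8.05, and 8.14, 7.97 and 8.07 in experiment 2 hypoxia against 7.84 and 8.06. It fell in the chamber (-0.54, adjusted p = 0.021) and rose in experiment 1 (0.57, adjusted p = 0.017). The differences between devices were -0.90 ± 0.19 for Hnrnpa1, -0.71 ± 0.12 for Sf3a1 and -0.89 ± 0.20 for Hnrnpdl (adjusted p = 0.023, 0.0062 and 0.029). Sf3b5, named after its values were seen, differed by -0.67 ± 0.15 (adjusted p = 0.031). These calls rest on the 2 chamber controls: without control 1 of that set the count was 1 and without control 2 it was 0, and it was also 1 without chamber hypoxia array 1 or 2, experiment 1 control 1 or experiment 2 control 1, and 2 without experiment 1 hypoxia array 2. Between experiments 1 and 2, limma called 0 of the 61 members, where 0.203% of all probe sets passed, and 4 members had an unadjusted p under 0.05 (8.3% of all probe sets).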

How the data were processed

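The authors deposited 1 log2 RMA value per probe set and array, and per the submitters' processing notes GCOS 1.2 and RMA were used; the RMA version, and whether all arrays were run together, were not stated by any source used. Values were used without further scaling. Probe sets were named from GEO's platform annotation: those without a gene symbol, 396 that match several genes and 66 Affymetrix controls were left out. The members and lists were chosen with earlier results of these data known. With limma 3.58.1 in R 4.3.3, 9 group means were estimated per probe set over 21 arrays and 10833 probe sets (12 residual degrees of freedom). Tests were two-sided, with Benjamini-Hochberg adjustment over all 10833, called under 0.05. Mean hypoxia is the equal-weight mean of hypoxia minus own controls over 3 sets. No p was adjusted over the members.

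Values in every array are given for all Srsf1 sets, up to 6 highest and 6 lowest called members for mean hypoxia and each CoCl2 dose, up to 3 per direction for each difference, and all sets of the genes whose sets disagreed most, with 3 dim sets that passed nowhere given by their range. On simulated data the test recovered 92% of changes of 0.5 and 100% of changes of 1 (log2) for mean hypoxia, and 35% and 89% for 100 µM CoCl2, with 100 changed probe sets of each size. In each simulated comparison 200 of 10833 probe sets changed, whereas in the data 28% were called for mean hypoxia and 34.4% at 100 µM. The adjusted p depends on how many probe sets change, so these recovery shares hold for the simulated setting only. The number of arrays limits the precision. Of the 61 members, 49 lay above the dim filter (40th percentile of the mean, log2 5.03), and 16 carry suffixes for shared or relaxed probes. Alternatives were other scalings, filters, array weights, fewer sets, 1 value per gene, an Actb covariate, a replicate block and leaving out each array.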

Additional observations from a re-analysis of the deposited data

Results flagged for a closer look

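Chamber and incubator differed in the hypoxia effect of 4 members by a test of the difference itself, and no explanation was tested. Hnrnpa1 92724_at differed by -0.90 (chamber minus incubator, log2), with changes of -0.24 in the chamber, 0.93 in experiment 1 and 0.39 in experiment 2. Hnrnpdl 96083_s_at differed by -0.89, with -0.54 in the chamber, 0.57 in experiment 1 and 0.11 in experiment 2. Sf3a1 differed by -0.71, with -0.16 in the chamber, 0.70 in experiment 1 and 0.41 in experiment 2. Sf3b5 differed by -0.67, with -0.60 in the chamber, 0.15 in experiment 1 and -0.02 in experiment 2. Leaving out chamber control 2 gave -0.93, -0.88 and -0.67 for Hnrnpa1, Hnrnpdl and Sf3a1 with adjusted p of 0.14, 0.2 and 0.11.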

How the results depend on the processing

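Of the alternatives tried for single members, 1195 counted as the same, 103 lost the call, 10 gained it and 1 reversed a called change. The reversed one was the dose difference of U2af1, -0.38 with the Actb covariate (adjusted p = 0.63). A change without a call could cross 0 and still count as the same. That of Srsf1 101022_at at 100 µM did so, from -0.07 to 0.19 over the settings. The counts of members called moved by over 1.5 times in 37 alternatives and stayed within that in 160, and the cause was not tested. No share of all probe sets is given beside the counts under alternatives. A shift of the members and a shift of the whole array therefore cannot be told apart. The mean hypoxia count of 32 never moved that far (29 to 33 when leaving out single arrays). Array weights gave 41 for the chamber, 23 for 100 µM, 1 for the dose difference and 16 for the device difference. Fitting only the sets compared gave 41 for the chamber, 21 for 100 µM, 21 for 200 µM, 0 for the dose difference and 8 for the device difference. The Actb covariate gave 21 for 100 µM and 0 for the dose difference, and quantile normalization gave 2 for the device difference. With 1 probe set per gene the counts were 11 for experiment 2 and 9 for CoCl2 minus hypoxia, and with the mean of a gene's sets they were 10, 9 and, for 200 µM, 20, over fewer values.

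Leaving out 1 array gave 16 to 24 for the chamber, 14 to 20 for experiment 1, 9 to 16 for experiment 2, 22 to 40 for 100 µM, 23 to 30 for 200 µM, 3 to 20 for the dose difference, 0 to 4 for the device difference, 0 for experiment 1 minus experiment 2 and 4 to 26 for CoCl2 minus hypoxia. Samples with the same replicate number share only that number: residuals correlated from -0.354 to 0.316 over 12 pairs. The fit with the replicate number as a block, with 5 residual degrees of freedom, gave 29 for mean hypoxia, 9 for experiment 2, 5 for the dose difference, 0 for the device difference and 7 for CoCl2 minus hypoxia. Single-member fits without 1 array, or with the Actb covariate, covered the members whose array values are given, in the comparisons that picked them. They did not cover the other members or the splicing lists.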

Other observations

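Besides the members, 7 probe sets match Snrpa, Snrpd1, Snrpd2, Hnrnpa3 or Hnrnpa1 together with other genes and were not tested. Their mean hypoxia changes ran from -0.29 (the set of Snrpd1) to 0.16 (97272_at, Hnrnpa1). At 100 µM CoCl2 the set of Snrpd2 changed by -1.27, that of Snrpd1 by -1.22 and that of Snrpa by -1.02. At 200 µM the Hnrnpa1 set 100371_at changed by 0.98 and the other Hnrnpa1 set, 97272_at, by 0.15.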
